A study of Homo sapiens with 6 samples.

Results

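Transcripts of 10 genes of pluripotency and embryonic growth were followed in HEK293 cells with and without an intact FAM60A gene. They were listed by name, with no threshold on their values, as genes of the pluripotency network, the LIN28/let-7 axis and the MYC family: LIN28A, LIN28B, TRIM71, HMGA2, SALL4, POU5F1, NANOG, KLF4, MYC and MYCN. Each was matched to 1 Ensembl identifier among the 62754 genes of the deposited count table. Poly(A) RNA was sequenced from control cells (3 libraries) and from FAM60A-knockout cells (3 libraries), all grown in DMEM with fetal bovine serum. HEK293 is a line from human embryonic kidney. Other fields of the labels call the cells HEK293T, which in addition expresses the large T antigen of SV40. The knockout was a pool, not a clone, transfected with Cas9 and guides to 3 regions of FAM60A and selected with puromycin. The labels give the control cells no vector or selection. They also do not say whether the libraries of a group came from separate cultures, so p-values measure the spread between these libraries, which may be technical.

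FAM60A (current symbol SINHCAF) belongs to the Sin3/HDAC complex, which removes acetyl groups from histones at promoters, and it is known to support the growth of embryonic stem cells. In those cells POU5F1, NANOG and SALL4 hold the undifferentiated state, and KLF4 and MYC can help to restore it in other cells. LIN28A and LIN28B bind the precursors of let-7 microRNAs and keep them from maturing. Mature let-7 in turn pairs with the 3′ untranslated regions (3′ UTRs) of growth-promoting transcripts, LIN28B, TRIM71 and HMGA2 among them, and lowers their levels.

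Total counts were 92736586, 93172005 and 93346824 in controls 1, 2 and 3, and 88361827, 91279417 and 90771711 in knockouts 1, 2 and 3. The knocked-out gene was checked first. FAM60A (ENSG00000139146) held 11028, 10165 and 12792 counts in controls 1 to 3 against 5684, 5793 and 5449 in knockouts 1 to 3, with the highest value in control 3 and no overlap between groups. Its log2 fold change was -0.85 (SE 0.111, edgeR adjusted p = 0.00863), and -0.78 without control 3 (edgeR adjusted p = 7.73e-09). The call was lost without any one knockout library and with a block for the replicate number, with an adjusted p between 8.01e-10 and 0.0736 over 13 alternatives. Control 3 nevertheless stood apart from the other controls. Of 21031 genes with a mean count of 10 or more, 1554 to 1588 differed 4-fold or more between control 3 and controls 1 or 2, and 664 to 723 between control 3 and a knockout library. Between controls 1 and 2 this number was 6, and between either of them and a knockout library it was 1303 to 1412. Results of the members are therefore given with and without this library.

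The let-7 family and its matches in the members are shown first, because they split the 10 genes into 2 kinds. All 9 mature let-7 family names (let-7a, b, c, d, e, f, g and i, and miR-98) share the seed GAGGUAG, bases 2 to 8 of the microRNA. The sequences, from RefSeq, are 5′ to 3′ with the seed in capitals.
hsa-let-7a-5p: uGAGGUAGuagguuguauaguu
hsa-let-7b-5p: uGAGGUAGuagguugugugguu
hsa-miR-98-5p: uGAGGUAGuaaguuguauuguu

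The reverse complement of this seed, CTACCTC, was searched on the transcribed strand of the 3′ UTR of each gene's canonical transcript. It occurred in 9.79% of the 3′ UTRs of 19392 protein-coding genes, and in those of 5 of the 10 members. The members were listed in part as genes of the LIN28/let-7 axis, and the length of the 3′ UTR was not taken into account. These shares are therefore a description and not a test. TRIM71 held 6 matches, LIN28B and HMGA2 held 4 each, and LIN28A and SALL4 held 1 each. The other 5 members (POU5F1, NANOG, KLF4, MYC and MYCN) held none in this window, which says only that these letters were not found there. One match per gene is shown with its surroundings, in GRCh37, with the match in capitals, and all lie in exonic 3′ UTR sequence.
LIN28A, chr1:26753842-26753866, plus strand: cagcctattgaaCTACCTCattttt
LIN28B, chr6:105526690-105526714, plus strand: cggttgcaaagtCTACCTCatgcaa
TRIM71, chr3:32933463-32933487, plus strand: attgcttaagtcCTACCTCatcttt
HMGA2, chr12:66357081-66357105, plus strand: aacgttcgatttCTACCTCagcagc
SALL4, chr20:50399457-50399481, minus strand: gctttaatttatCTACCTCatttat

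In TRIM71, 3 of the matches lay close together, at positions 4009, 4032 and 4107 of a 3′ UTR of 6013 bases. The LIN28B and HMGA2 matches shown are the first in their 3′ UTRs, at positions 44 and 21. A match is a description of the sequence and not a measured site, and mature let-7 was not measured in these poly(A) libraries.

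Of the 10 members, 8 passed the filter on low counts and were tested with the other genes by edgeR's quasi-likelihood test, 20992 genes in all. MYCN fell in the knockout, and the other 7 tested members were not called at an adjusted p of at most 0.05. Thus 1 of 8 was called, 12.5%, beside 16.6% of all tested genes (7.96% higher and 8.67% lower in the knockout). MYCN was also the only member both called and past an absolute log2 fold change of 1, as were 7.06% of all tested genes, and TRIM71 was past 1 but not called. Over all genes tested, 1671 were higher and 1820 lower. When libraries were scaled by total count alone, the median log2 fold change of all genes shifted by -0.11 and the calls split into 1235 higher and 2668 lower.

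Without control 3, 6 of the 8 tested members were called, 75%, but so were 65.6% of the 21686 genes in that fit. These were MYC and TRIM71, higher in the knockout, and LIN28B, POU5F1, KLF4 and MYCN, lower. MYC, TRIM71 and MYCN were both called and past an absolute log2 fold change of 1, as were 22.9% of the genes in that fit. The groups of 3 did not overlap for 2 of the 8 tested members, POU5F1 and MYCN, compared with 41.6% of all tested genes. The plot of levels by library shows the place of control 3: it lay between the means of controls 1 and 2 and of the knockouts for HMGA2, POU5F1 and MYCN, and beyond the knockouts for the other 5 tested members.

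**Figure D1:**
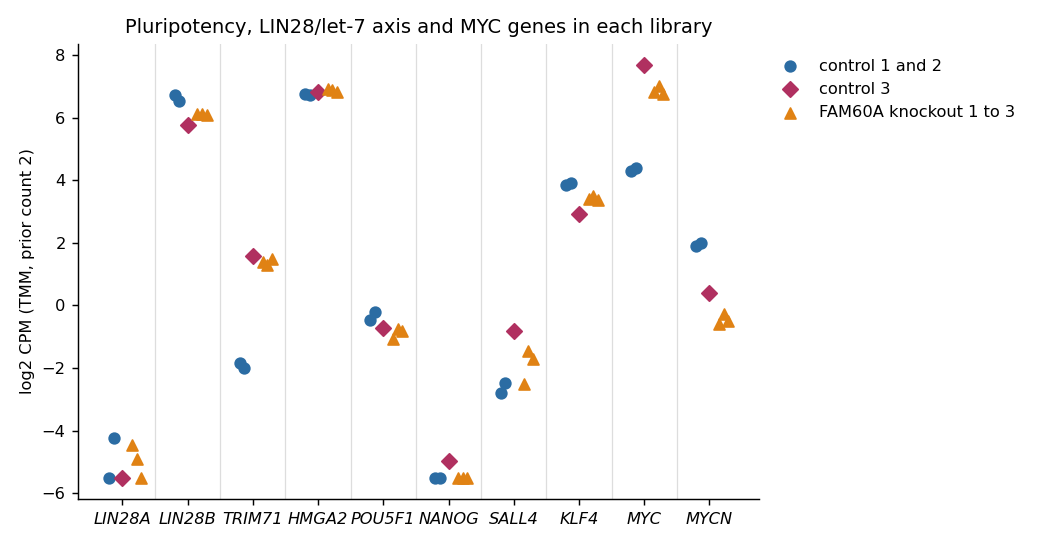
Levels of the 10 genes in each library, in log2 CPM (counts relative to library size, scaled by edgeR's TMM factors, prior count 2), with controls 1 and 2 as circles, control 3 as a diamond and knockouts 1 to 3 as triangles. LIN28A and NANOG lie at the bottom of the scale with at most 3 counts in any library, and the diamond lies far from the circles for MYC, TRIM71, MYCN and SALL4.

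LIN28A (ENSG00000131914, chr1:26737308-26756219 in GRCh37) and LIN28B (ENSG00000187772, chr6:105384491-105531207) encode the RNA-binding proteins that block let-7 maturation. LIN28A held 0, 3 and 0 counts in controls 1 to 3 and 2, 1 and 0 in knockouts 1 to 3. All 6 values were at or under the floor of 3 counts that a count of 0 allows, so no difference was detectable at this depth, and the floor covers counting error only. LIN28B was the abundant paralogue. It held 10315, 8977 and 5235 counts in controls 1 to 3, and 5857, 6088 and 6035 in knockouts 1 to 3. Controls 1 and 2 were above the knockouts, while control 3 was the lowest of the 6 libraries, so the groups overlapped. Normalized expression was 84.6 ± 27.1 CPM in the controls and 69.1 ± 0.657 CPM in the knockouts (SD, n = 3). The log2 fold change of LIN28B was -0.29 (SE 0.238, 95% interval -0.866 to 0.282, edgeR adjusted p = 0.425). Without control 3 it was -0.56 (SE 0.0761, edgeR adjusted p = 1.37e-06), a 1.44-fold lower level. The adjusted p was lowest in that fit and at most 0.765 in the 13 alternative fits. In a culture of this kind, fewer cells expressing a gene and less RNA per cell cannot be told apart, here and for every member below.

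TRIM71 (ENSG00000206557, chr3:32859489-32939316) encodes a ubiquitin ligase and RNA-binding protein of early embryos that is among the best known let-7 targets. Its counts were 25, 22 and 290 in controls 1 to 3 and 218, 213 and 244 in knockouts 1 to 3. Controls 1 and 2 were low, the knockouts were high, and control 3 was the highest of all. Expression was 1.16 ± 1.59 CPM in the controls and 2.59 ± 0.168 CPM in the knockouts (SD, n = 3). The TRIM71 log2 fold change was 1.16 with an SE of 0.973 (95% interval -1.19 to 3.50, edgeR adjusted p = 0.44). Against controls 1 and 2 alone, the knockout level was 10.7-fold higher, with a log2 fold change of 3.38 (SE 0.198, edgeR adjusted p = 3.09e-12). The adjusted p ranged from this value to 0.685 over 12 alternative fits. Control 3 in turn was 12.3-fold above controls 1 and 2, so the difference inside the control group was as large as that between the groups.

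HMGA2 (ENSG00000149948, chr12:66218240-66360071), an architectural chromatin protein of embryonic and tumour cells, was the steadiest of the tested members. It held 10612, 10114 and 11007 counts in controls 1 to 3 and 10106, 10404 and 9963 in knockouts 1 to 3. No library stood out, and the groups overlapped after normalization. Expression was 109.5 ± 4.33 CPM in the controls and 117.1 ± 3.80 CPM in the knockouts (SD, n = 3). The log2 fold change of HMGA2 was 0.10 (SE 0.0816, 95% interval -0.0987 to 0.294, edgeR adjusted p = 0.437), and scaling by total count alone turned it to -0.01. Without control 3 it was 0.10 (edgeR adjusted p = 0.262, with a range of 0.262 to 0.93 over 13 alternatives). The 3 let-7 targets with several seed matches thus had unlike values against controls 1 and 2, with TRIM71 higher, LIN28B lower and HMGA2 near level. Whether let-7 had a part in any of these values was not tested.

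**Figure D2:**
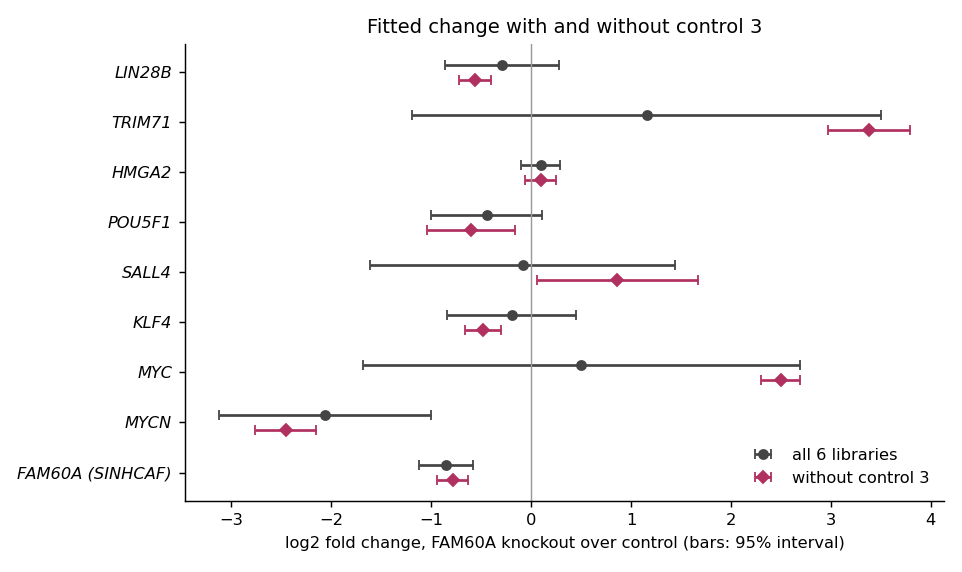
Fitted log2 fold changes (knockout over control) of the 8 tested genes and of FAM60A, with 95% intervals, for all 6 libraries (circles) and without control 3 (diamonds). The intervals of TRIM71 and MYC span 0 with all libraries, from -1.19 to 3.50 and from -1.68 to 2.69, and lie above 0 without control 3, while those of MYCN lie below 0 in both fits.

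Among the pluripotency regulators, NANOG (ENSG00000111704, chr12:7940390-7951742), a homeodomain factor of the undifferentiated state, held 1 count in control 3 and 0 in each other library. POU5F1 (ENSG00000204531, chr6:31132114-31148508) encodes OCT4, the POU-domain partner of SOX2. It held 69, 81 and 56 counts in controls 1 to 3 and 38, 50 and 48 in knockouts 1 to 3. These were low values, and those of the knockouts lay below all 3 controls. Expression was 0.711 ± 0.132 CPM in the controls and 0.522 ± 0.0623 CPM in the knockouts (SD, n = 3), a two-sided exact permutation p of 0.1, the smallest that 3 against 3 allow. The log2 fold change of POU5F1 was -0.45 (SE 0.23, edgeR adjusted p = 0.22), and without control 3 it was -0.60 (SE 0.212, edgeR adjusted p = 0.0168). The adjusted p lay between 0.0168 and 0.508 over 13 alternatives.

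The POU5F1 counts have a further limit. TCF19, on the opposite strand, overlaps the gene and held 9774, 10412 and 9178 counts in controls 1 to 3 and 5529, 6427 and 5825 in knockouts 1 to 3. TCF19 fell by 0.57 on the log2 scale (SE 0.0953, edgeR adjusted p = 0.0152, up to 0.104 over the alternatives). The libraries were strand-specific by the methods, but whether the counting used strand is not given in the sources used here. Reads of the pair may therefore not be separable. POU5F1 also has near-identical processed copies, of which POU5F1P3 held 7 to 17 counts per library and can share reads with it.

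SALL4 (ENSG00000101115, chr20:50398870-50419060) encodes a zinc-finger factor of embryonic stem and germ cells. It held 12, 15 and 53 counts in controls 1 to 3 and 13, 30 and 25 in knockouts 1 to 3. Control 3 held the highest value and the groups overlapped. The SALL4 log2 fold change was -0.09 (SE 0.635, 95% interval -1.61 to 1.44, edgeR adjusted p = 0.939), and it was 0.86 without control 3 (SE 0.386, edgeR adjusted p = 0.0547), with a range of 0.0547 to 0.965 over 13 alternatives. The counts were few, and the sign of the SALL4 value turned between fits.

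KLF4 (ENSG00000136826, chr9:110247133-110252763), a Krüppel-like factor used in reprogramming, followed LIN28B across the libraries. Its counts were 1400, 1433 and 730 in controls 1 to 3 and 896, 997 and 903 in knockouts 1 to 3. As for LIN28B, controls 1 and 2 lay above the knockouts and control 3 below them. KLF4 expression was 12.3 ± 4.11 CPM in the controls and 10.7 ± 0.576 CPM in the knockouts (SD, n = 3). The log2 fold change of KLF4 was -0.19 (SE 0.269, 95% interval -0.842 to 0.454, edgeR adjusted p = 0.646). Without control 3 it was -0.48 (SE 0.0858, edgeR adjusted p = 4.7e-05, rising to 0.957 at most over 13 alternatives).

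The MYC family held members that differed in opposite directions from controls 1 and 2. MYC (ENSG00000136997, on chromosome 8) and MYCN (ENSG00000134323, chr2:16080672-16087129) encode related growth-promoting factors that bind DNA as dimers with MAX, MYC in most dividing cells and MYCN mainly in embryonic and neural tissue. MYC held 1900, 2021 and 20015 counts in controls 1 to 3 and 9470, 11434 and 9546 in knockouts 1 to 3. Controls 1 and 2 were the lowest libraries, the knockouts were between, and control 3 held the most. Expression was 82.6 ± 107.9 CPM in the controls and 117.0 ± 11.8 CPM in the knockouts (SD, n = 3).

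The log2 fold change of MYC over all libraries was 0.50 with an SE of 0.909 (95% interval -1.68 to 2.69, edgeR adjusted p = 0.731). Compared with controls 1 and 2 alone, the knockout level was 5.76-fold higher, with a log2 fold change of 2.50 (SE 0.0936, edgeR adjusted p = 1.62e-15). The adjusted p ranged from that value to 0.99 over 12 alternatives. Control 3 was 10.2-fold above controls 1 and 2 and 1.77-fold above the mean of the knockouts. The fitted value therefore also depended on how the control libraries were averaged, and limma-voom, which averages logarithms, gave 1.41 (not called).

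MYCN ran the other way. It held 359, 377 and 124 counts in controls 1 to 3 and 54, 70 and 61 in knockouts 1 to 3. Every knockout library lay below every control, with control 3 between controls 1 and 2 and the knockouts. MYCN expression was 2.97 ± 1.46 CPM in the controls and 0.710 ± 0.0801 CPM in the knockouts (SD, n = 3), 4.18-fold lower. Its log2 fold change was -2.06 (SE 0.439, 95% interval -3.12 to -1.0, edgeR adjusted p = 0.028), and the exact permutation test gave p = 0.1, the smallest possible here. Without control 3 it was -2.45 (SE 0.146, edgeR adjusted p = 4.39e-12). The call was lost without any other single library, with limma-voom after quantile normalization and with a block for the replicate number. Over the 13 alternatives the adjusted p reached 0.138, and the direction was the same in each.

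Genes that overlap MYC or MYCN, and the nearest protein-coding gene that was tested on each side, were read for comparison. MYCNOS, an antisense transcript that overlaps MYCN, held 16, 22 and 11 counts in controls 1 to 3 and 4, 6 and 5 in knockouts 1 to 3. MYCNOS passed the filter on low counts only through the controls, where it was higher, so its test is not given. Its counts were lower in the knockouts, as were those of MYCN, and reads of the pair may not be separable. DDX1, the nearest tested gene before MYCN (306202 bases away), had a log2 fold change of -0.00 (SE 0.12, edgeR adjusted p = 0.996). CASC11, which overlaps MYC on the other strand, held 0 to 4 counts in every library, far below MYC. LRATD2, the nearest tested gene before MYC, lies 1176957 bases away and held 2661, 2650 and 712 counts in controls 1 to 3 and 761, 804 and 839 in knockouts 1 to 3, opposite in direction to MYC (log2 fold change -1.17, edgeR adjusted p = 0.137). CYRIB, the nearest tested gene after MYC, lies 2096642 bases away. It held 5361, 5293 and 5863 counts in controls 1 to 3 and 8209, 8199 and 7598 in knockouts 1 to 3, a rise of 0.70 on the log2 scale (SE 0.0931, edgeR adjusted p = 0.00917, up to 0.0748 over the alternatives). CYRIA, the nearest tested gene after MYCN (643598 bases away), stood at -0.31 and was not called.

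Per kilobase of the canonical transcript, the 3 MYC family genes could be set side by side. MYC stood at 5.25, 5.65 and 55.7 CPM per kb in controls 1 to 3 and at 30.2, 35.0 and 29 in knockouts 1 to 3. MYCN stood at 1.41, 1.5 and 0.491 CPM per kb in controls 1 to 3 and at 0.245, 0.305 and 0.264 in knockouts 1 to 3. MYCL, the third paralogue, stood at 1.65, 2.04 and 3.02 CPM per kb in controls 1 to 3 and at 3.05, 3.33 and 2.99 in knockouts 1 to 3. MYC was thus the leading family member in every library. Its share of the family's summed level was 63.2% and 61.5% in controls 1 and 2, 94.1% in control 3 and 89.9% to 90.6% in the knockouts. The MYCN share was 17.0% and 16.3% in controls 1 and 2 and under 1% in each of the other 4 libraries. By this measure control 3 resembled the knockouts, although its FAM60A count did not.

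**Figure D3:**
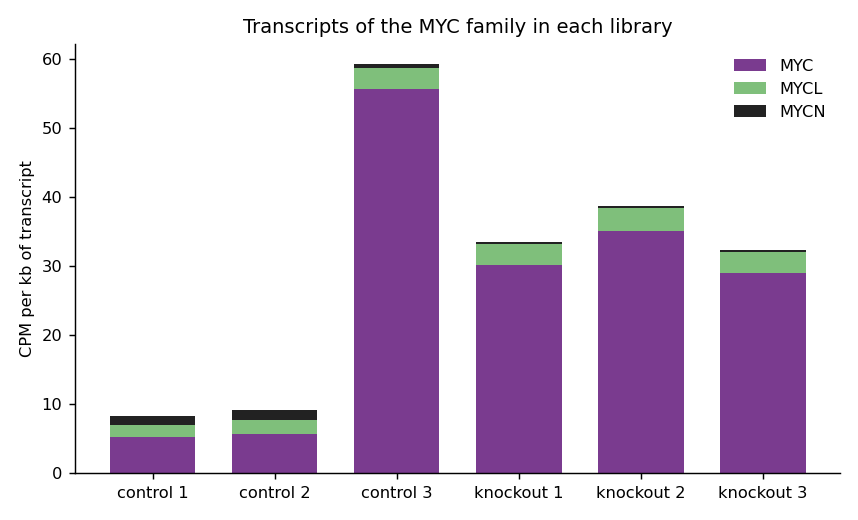
Stacked levels of MYC, MYCL and MYCN in each library, in CPM per kb of the canonical transcript. Controls 1 and 2 total 8.32 and 9.20, control 3 totals 59.2, and the knockouts total 32.3 to 38.7.

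On the same scale the members could be ranked. In the knockouts the order was MYC (31.4 ± 3.17 CPM per kb), HMGA2 (28.5 ± 0.924), LIN28B (12.7 ± 0.121), KLF4 (3.66 ± 0.196), POU5F1 (0.370 ± 0.0442), TRIM71 (0.298 ± 0.0193), MYCN (0.272 ± 0.0306) and SALL4 (0.0499 ± 0.0184; SD, n = 3). MYC and HMGA2 differed by less than the SD of MYC, and TRIM71 and MYCN by less than the SD of MYCN. In the controls HMGA2 led with 26.6 ± 1.05 CPM per kb, followed by MYC (22.2 ± 29), LIN28B (15.5 ± 4.97), KLF4 (4.19 ± 1.40) and MYCN (1.14 ± 0.560). POU5F1 (0.505 ± 0.0935), TRIM71 (0.134 ± 0.183) and SALL4 (0.0530 ± 0.0454) came last. There MYC did not differ from either neighbour beyond its own SD, nor TRIM71 from SALL4. In controls 1 and 2 alone, LIN28B (18.3 CPM per kb) stood above MYC (5.45), which was close to KLF4 (4.99), and TRIM71 (0.0279) was close to SALL4 (0.0268).

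For each tested member, the 2 most similar genes were sought among 14664 others with a mean of at least 100 counts, by the distance between centred log2 CPM profiles over the 6 libraries (0 for identical profiles). MYC lay nearest to INSM1 (distance 0.112) and FBLN5 (0.168), and INSM1 held 151, 174 and 1665 counts in controls 1 to 3 and 753, 976 and 777 in knockouts 1 to 3. MYCN lay nearest to OLFM1 (0.242) and IFITM3 (0.245). TRIM71 lay nearest to MAP7D2 (0.231) and SULF1 (0.248), each low in controls 1 and 2 only. LIN28B lay nearest to ARHGAP42 (0.0738) and RPL7L1 (0.0912), and KLF4 to HBEGF (0.0656) and RAB14 (0.0739). HMGA2 had the closest neighbours, WDR11 (0.0417) and SHQ1 (0.0489), and POU5F1 was near RBPMS (0.0919) and PCGF1 (0.113). SALL4, with few reads, had no close neighbour, the nearest being ALOXE3 at 0.581 and ENSG00000273145 at 0.601. Close profiles share libraries and say nothing of shared control.

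Genes related to the members were read in 7 lists, whose counts stand beside the 16.6% called (7.96% higher) and the median log2 fold change of -0.01 over all tested genes, or beside 65.6% called and a median of -0.00 without control 3. The share called was 10% in the wider pluripotency network, 35.7% in the SALL and KLF paralogues, 41.7% in the let-7 machinery, 25% in the let-7 hosts, 16.7% in other let-7 targets, 18.2% in the MYC/MAX network and 33.3% in the MYC targets. Without knockout 1 or 3, edgeR called 0 genes in each list, with 23 and 25 genes of all lists at an unadjusted p under 0.05. With the replicate block it called 1 gene, among the other let-7 targets, and 28 were at an unadjusted p under 0.05.

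Many genes of the wider pluripotency network were, like LIN28A and NANOG, at the floor. Of 22 further genes of the network, 8 held at most 3 counts in every library, among them ZFP42, DPPA4, TDGF1 and PRDM14, and 10 were tested. KLF2, a paralogue of KLF4, was the 1 gene called: it fell by 1.27 on the log2 scale (SE 0.254, edgeR adjusted p = 0.0238), beside a list median of -0.01. STAT3 (-0.55, edgeR adjusted p = 0.0895) and DNMT3B (-0.09, edgeR adjusted p = 0.748) were the most abundant and were not called. Without control 3, 8 of the 10 were called (80%, beside 65.6% of all genes in that fit), 6 higher and 2 lower, with a list median of 0.75. The list of 7 pluripotent stem cell markers, which holds POU5F1, NANOG and LIN28A, had 5 genes at the floor in every library, LIN28A and NANOG included. Its summed level was 11.6, 11.3 and 31.8 CPM in controls 1 to 3 and 18.0, 19.5 and 19 CPM in knockouts 1 to 3, with SOX2 the most abundant. Apart from SOX2 and POU5F1, the markers of this list were thus at the floor.

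SALL4 and KLF4 were set beside 14 of their paralogues, of which 5 were called, 4 lower and 1 higher (list median -0.30). SALL3 fell by 1.31 on the log2 scale (edgeR adjusted p = 0.0423), KLF7 by 0.99 (edgeR adjusted p = 0.015) and SALL1 by 0.91 (edgeR adjusted p = 0.00913). KLF13 rose by 0.56 (edgeR adjusted p = 0.0196), and KLF11, named after its value was seen, fell by 0.45 (edgeR adjusted p = 0.0455). The most abundant, KLF9 (-0.26) and SALL2 (-0.17), were not called. Without control 3 the list had 9 calls, or 64.3%, near the 65.6% of all genes in that fit.

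Around LIN28B, the machinery that makes, tails and loads let-7 had 5 of 12 genes called (list median 0.04). AGO2, the slicing Argonaute, rose by 0.83 on the log2 scale (edgeR adjusted p = 0.00863). TUT7, which tails let-7 precursors bound by LIN28A, rose by 0.77 (edgeR adjusted p = 0.0105), and TUT4, which does the same and was named after its value was seen, fell by 0.32 (edgeR adjusted p = 0.0451). DGCR8, the partner of DROSHA, rose by 0.48 (edgeR adjusted p = 0.0448), and XPO5, the exporter of microRNA precursors, fell by 0.54 (edgeR adjusted p = 0.0491). DROSHA itself stood at -0.22 and was not called. Without control 3 all 12 were called, 6 in each direction, beside 65.6% of all genes in that fit.

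Of 5 let-7 host transcripts, 4 were tested (list median 0.83), and MIRLET7BHG, the host of let-7a-3 and let-7b, was called. It held 104, 119 and 194 counts in controls 1 to 3 and 409, 357 and 349 in knockouts 1 to 3, a rise of 1.58 on the log2 scale (SE 0.281, edgeR adjusted p = 0.0179). HUWE1 (0.41) and MIRLET7A1HG (-0.30) were not called. Nor was MIR99AHG (1.255, edgeR adjusted p = 0.155), named after its value was seen. It held 126, 149 and 492 counts in controls 1 to 3 and 598, 472 and 572 in knockouts 1 to 3. Without control 3 all 4 hosts were called, beside 65.6% of all genes, with MIR99AHG at 2.12. A host transcript does not give the level of the mature microRNA. Of 12 further known let-7 targets, 11 of which held the seed match, 2 were called (list median -0.19): ARID3B fell by 0.87 on the log2 scale (edgeR adjusted p = 0.00606) and CDC34 by 0.73 (edgeR adjusted p = 0.0434). HMGA1, the paralogue of HMGA2, stood at 0.23 and IGF2BP1 at -0.21, neither called, and without control 3 the list had 7 calls (58.3%, below the 65.6% of all genes).

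**Figure D4:**
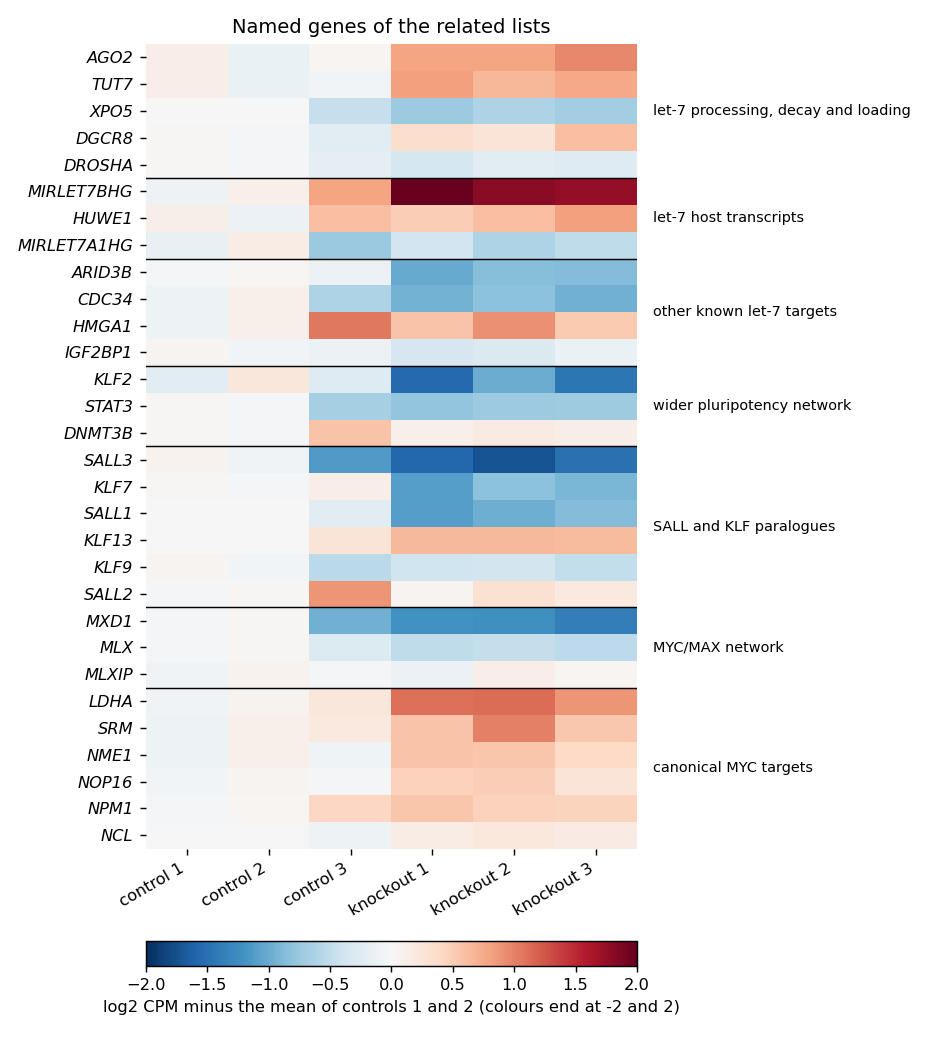
Named genes of the 7 related lists in each library, as log2 CPM minus the mean of controls 1 and 2 (red higher, blue lower). In the control 3 column LDHA (0.219) and ARID3B (-0.113) lie near 0, while SALL3 (-1.14) and MXD1 (-0.968) lie towards the knockouts.

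Of 11 further genes of the MYC/MAX network (MAX, the dimer partner of MYC and MYCN, the paralogue MYCL, and other proteins that pair with MAX or MLX), 2 were called, both lower (list median 0.02). MXD1, a MAX partner that represses, fell by 1.02 on the log2 scale (edgeR adjusted p = 0.05), and MLX, a MAX-like protein, by 0.42 (edgeR adjusted p = 0.0406). MLXIP stood at 0.02 and was not called, and 8 genes (72.7%, beside 65.6% of all genes) were called without control 3. Among 12 textbook targets of MYC, 4 were called, all higher (list median 0.30). LDHA, which makes lactate, rose by 0.96 on the log2 scale (edgeR adjusted p = 0.0079). SRM, spermidine synthase, rose by 0.65 (edgeR adjusted p = 0.0392), NME1, a nucleotide kinase, by 0.53 (edgeR adjusted p = 0.0212) and NOP16, a nucleolar protein, by 0.42 (edgeR adjusted p = 0.0403).

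The number of MYC targets called was 2 with library size alone, 1 without control 1, control 2 or knockout 2, and 8 without control 3 (66.7%, near the 65.6% of all genes). Of these 8, FBL, a nucleolar methyltransferase named after its value was seen, had the largest change without control 3. It held 21514, 24546 and 61692 counts in controls 1 to 3 and 54847, 64887 and 59608 in knockouts 1 to 3, low in controls 1 and 2 alone, as was MYC. Its log2 fold change was 0.89 (SE 0.403, edgeR adjusted p = 0.174), and 1.5 without control 3 (edgeR adjusted p = 9.27e-12, with a range up to 0.379 over the alternatives). In log2 CPM relative to controls 1 and 2, the most abundant targets NPM1 and NCL stood at 0.42 and -0.1 in control 3, and at 0.44 to 0.556 and 0.154 to 0.205 in the knockouts. NPM1 (0.33) and NCL (0.21) were not called over all libraries. On the log2 CPM scale above, LDHA, SRM, NME1 and NOP16 stood at 0.219, 0.195, -0.0817 and -0.0291 in control 3. In the knockouts these called targets stood at 0.26 to 1.11. Unlike FBL, each thus lay nearer to controls 1 and 2 in control 3, the library with the most MYC. The part of MYC in the values of its targets was not tested.

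Markers of other cells were read beside these results. The 4 HEK293 markers summed to 776, 791 and 450 CPM in controls 1 to 3 and to 351, 408 and 338 CPM in knockouts 1 to 3, with VIM the most abundant and none at the floor. VIM, high in controls 1 and 2 and lower in the other 4 libraries as was MYCN, carried this sum. NEFL (78.6, 80.7 and 142.8 CPM in controls 1 to 3 and 82.6 to 96.0 CPM in the knockouts) and PAX2 (1.48, 1.68 and 5.97 CPM, and 1.89 to 2.06 CPM) were instead lowest in controls 1 and 2. NEFM fell by 0.77 on the log2 scale (edgeR adjusted p = 0.0493, up to 0.193 over the alternatives). The 4 epithelial markers, led by KRT8 and with none at the floor, summed to 959, 996 and 783 CPM in controls 1 to 3 and to 890, 931 and 846 CPM in knockouts 1 to 3. The genes of that list ran in both directions. EPCAM (109.7, 109.5 and 300.7 CPM in controls 1 to 3 and 422.2 to 442.8 CPM in the knockouts) and CDH1 (2.04, 1.53 and 18.6 CPM, and 24.9 to 28.0 CPM) were low in controls 1 and 2 alone, as were TRIM71 and MYC. KRT8 (712.3, 749.2 and 386.9 CPM, and 326.2 to 382.9 CPM) and KRT18 (135.2, 136.2 and 76.6 CPM, and 69.8 to 81.8 CPM) were high there, and none of the 4 was called over all libraries. The 5 fibroblast markers, led by COL1A1 and with COL1A2 at the floor, summed to 23.5 to 29.1 CPM. Of them COL1A2 was not tested, and COL1A1 and LUM were called, beside 16.6% of all tested genes. COL1A1 fell by 0.66 on the log2 scale (edgeR adjusted p = 0.0361, up to 0.163 over the alternatives). LUM rose by 2.23 (edgeR adjusted p = 0.0463, up to 0.162), with control 3 lowest. It stood at 2.51, 2.32 and 0.487 CPM in controls 1 to 3 and at 7.32 to 9.37 CPM in the knockouts. DCN held 0, 1 and 1 counts in controls 1 to 3 and 30, 33 and 33 in knockouts 1 to 3. It passed the filter on low counts only through the knockouts, where it was higher, so its test is not given. COL3A1 stood at 0.20 and was not called. Its counts were 45, 49 and 368 in controls 1 to 3 and 156, 155 and 164 in knockouts 1 to 3. Without control 3, COL3A1 stood at 1.87 (edgeR adjusted p = 8.19e-09). The 4 leukocyte markers, led by LYZ and with CD3E at the floor, summed to at most 0.217 CPM. The part of these markers in the members' values was not tested.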

How the data were processed

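The authors deposited whole-number read counts per Ensembl gene, without normalization, for 6 libraries, and every column belonged to a sample. By the methods, poly(A) RNA was made into strand-specific libraries, Trimmomatic cleaned the reads, and Salmon was run against hg38. The submitters' processing notes list STAR 2.7.10b, featureCounts 2.0.0 and hg38, and the labels' protocol names hg19. The annotation release is not given in the sources used here. The counts carry no coordinates, so positions and 3′ UTRs are from GENCODE on GRCh37, and the 9 mature let-7 sequences matched by name are from RefSeq (GRCh38.p14 table).

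Of 62754 genes, 60878 matched a symbol. Libraries were grouped by their titles. Counts were normalized by TMM, filtered by filterByExpr (minimum count 10) and compared with edgeR 4.0.16 (two-sided quasi-likelihood F-test, Benjamini-Hochberg over the 20992 genes tested, threshold 0.05). SE was the log2 fold change over the square root of F. CPM per kb used the canonical transcript length. The fit was also run on simulated data, but the outcome is not reported here and no result rests on it. Alternatives were DESeq2 1.42.0, limma-voom (limma 3.58.1) with TMM or quantile normalization, library size alone, no filter, at least 10 counts in every library, each library left out, a replicate block, and a prior count of 0.5 in place of 2 for log2 CPM. The members and gene lists were chosen with earlier results of these data known. All members were named, and of each list the called genes with the largest change, up to 4, with the 2 most abundant. R 4.3.3, Python 3.11.15 and matplotlib 3.10.9 were used.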

Additional observations from a re-analysis of the deposited data

How the results depend on the processing

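The number of genes called over the whole table (3491) was 5581 with DESeq2, 407 with the replicate block and between 167 (without knockout 1) and 14221 (without control 3) when 1 library was left out. Deviations of same-numbered libraries from their group means correlated at 0.0477, 0.0587 and -0.0306 over 14689 genes, and those of differently numbered libraries at -0.134 to 0.11. Control 3 lay far from controls 1 and 2 and so shaped all the control deviations. These values therefore do not settle whether the replicate numbers pair the samples. Of the members, MYCN was called (1). With limma-voom after quantile normalization and with the block in edgeR 0 were called (2 and 1 at an unadjusted p under 0.05), while limma-voom with TMM called 1 of 8 and DESeq2 1 of 6, as it gave MYC and TRIM71 no adjusted p. Leaving out 1 library gave 0 to 6 calls in edgeR, the 6 without control 3 and 0 without any other library (1 at an unadjusted p under 0.05 in each). The 20 calls among the 88 genes of the related lists became 13 without a filter, 1 with the block and 0 (without knockout 1 or 3, with 23 and 25 at an unadjusted edgeR p under 0.05) to 56 (without control 3) with 1 library left out.

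MYCN stood at -1.97 with limma-voom after quantile normalization, at -1.92 with the block and at -2.45 to -1.81 with 1 library left out. FAM60A stood at -0.844 with the block and at -0.92 to -0.784 with 1 library left out. SALL4 turned to 0.167 with limma-voom and TMM, 0.0532 with quantile normalization, 0.116 with the block, 0.184 without knockout 1, and 0.135 and 0.158 where log2 CPM means were subtracted (prior count 2 and 0.5), and ranged from -0.456 to 0.864 with 1 library left out. HMGA2 turned to -0.0121 with library size alone. With 1 library left out, LIN28B ranged from -0.561 to -0.128, TRIM71 from 0.668 to 3.38, POU5F1 from -0.602 to -0.308, KLF4 from -0.48 to -0.0351 and MYC from 0.021 to 2.50, and each was called only without control 3 among all alternatives run. The cause of these changes was not tested. Low counts limit what can be said of LIN28A, NANOG and SALL4.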
